A study of Homo sapiens with 4 samples.

Results

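TNF and death receptor signalling was examined as 10 genes: the ligand TNF, the receptors TNFRSF1A, TNFRSF1B, FAS and TNFRSF10B, the adaptors TRADD, RIPK1 and FADD, the protease CASP8 and its inhibitor CFLAR. Membership is by gene symbol and uses no threshold on a value, although the set was drawn up with earlier results of these data known. All 10 were found among the 20348 genes of the count table. The cells were K562, a human line from chronic myeloid leukemia with erythroid features, and THP-1, a human line from acute monocytic leukemia. Each line had been kept for 72 h in the solvent DMSO or in periplocin at 100 nM, a cardiac glycoside of the plant Cortex periplocae, and the 4 groups are K562 DMSO, K562 periplocin, THP-1 DMSO and THP-1 periplocin. The sample titles call the DMSO cultures control blanks. Poly-A RNA was sequenced from 1 library per group, so no difference below has a replicate check, and each interval covers counting error only.

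TNF binds 2 receptors. TNFRSF1A (TNFR1) has a death domain, through which TRADD and RIPK1 are recruited. From that complex a cell can activate NF-κB and its survival genes, or, through FADD and CASP8, apoptosis. TNFRSF1B (TNFR2) has no death domain and signals through TRAF proteins. FAS and TNFRSF10B (DR5, a receptor of the ligand TRAIL) recruit FADD and CASP8 directly. CFLAR (c-FLIP) resembles CASP8 but its long form lacks protease activity, and it restrains CASP8 at these receptors. In myeloid cells, TNF is a product of activated monocytes and macrophages.

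With periplocin, most of the genes that passed 2-fold were lower in K562, and all that did so were higher in THP-1. In K562, 5 of the 9 genes with enough counts were lower past 2-fold (TNFRSF1A, TNFRSF10B, CFLAR, TRADD and FADD), and TNF appeared from a count of 0. In THP-1, 6 of 10 were higher past 2-fold (TNF, CASP8, FAS, CFLAR, TNFRSF1B and TNFRSF10B) and 0 were lower. A gene had enough counts where 1 of the 2 libraries held at least 10. TNF in K562 met that minimum through the periplocin library alone, so it could differ in 1 direction only. Over all genes, 23.5% were past 2-fold in K562 (10.5% higher and 13.0% lower of 12736) and 22.0% in THP-1 (9.67% higher and 12.4% lower of 13367). Fold changes were taken after TMM scaling of the 2 libraries of a line, and the median log2 fold change of all genes was -0.01 in K562 and -0.03 in THP-1. Among the members it was -1.21 over 9 genes in K562 and 1.12 over 10 genes in THP-1.

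**Figure D1:**
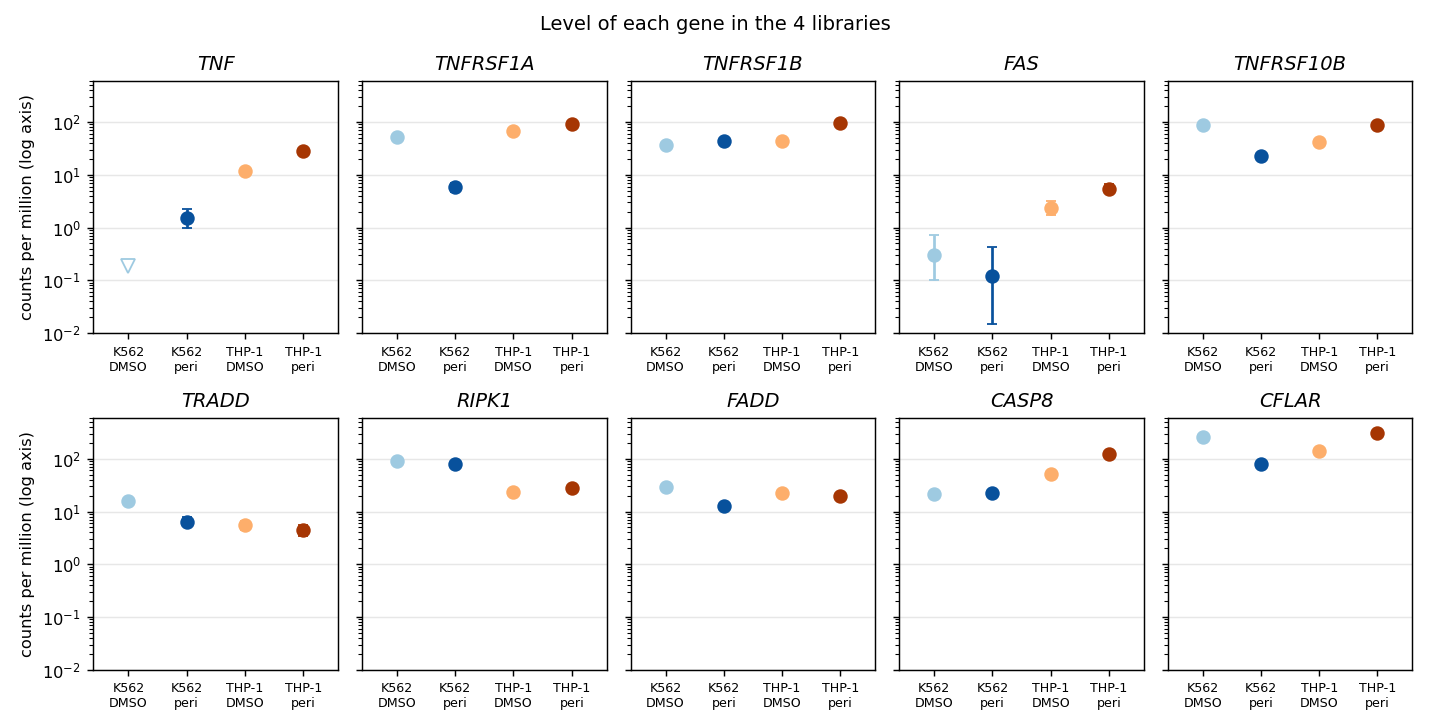
CPM (counts per 1000000 counts of a library, log axis) of the 10 genes in the 4 libraries, with 95% Poisson intervals where they are wider than the point. The open triangle stands for the floor of 3 counts, 0.183 CPM for TNF in K562 DMSO where the count was 0, and TNFRSF1A in K562 periplocin sits at 5.86 CPM, well below the other 3 libraries.

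Promoter sequences are shown for the ligand and both of its receptors, because each has a single start among the RefSeq windows used. FADD also has 1 window and is not printed. GENCODE 29 lists 16 transcripts for TNFRSF1A and 4 for TNFRSF1B, so other starts may contribute to their counts. The lines give bases before the RefSeq start, 5′ to 3′ on the gene's strand, from GRCh38.p14. TNF is chr6:31575315-31575564 on the plus strand, TNFRSF1A is chr12:6342115-6342326 on the minus strand, and TNFRSF1B is chr1:12166741-12166990 on the plus strand. The TNFRSF1A stretch stops short of the gene as GENCODE 29 annotates it and holds 212 bases. It therefore ends before the RefSeq start, from which the positions of matches are counted. Capitals mark matches, on either strand, to the TATA box letters TATAAA, the CCAAT box letters CCAAT and the GC box letters GGGCGG.
TNF: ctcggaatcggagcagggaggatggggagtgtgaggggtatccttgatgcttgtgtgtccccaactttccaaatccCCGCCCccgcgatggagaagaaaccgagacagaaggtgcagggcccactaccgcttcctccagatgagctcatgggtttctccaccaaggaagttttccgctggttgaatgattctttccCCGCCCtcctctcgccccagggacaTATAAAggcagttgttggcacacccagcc
TNFRSF1A: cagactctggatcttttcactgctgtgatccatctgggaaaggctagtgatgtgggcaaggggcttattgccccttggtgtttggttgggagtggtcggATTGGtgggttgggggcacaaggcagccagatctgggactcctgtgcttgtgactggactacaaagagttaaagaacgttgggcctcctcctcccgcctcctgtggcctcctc
TNFRSF1B: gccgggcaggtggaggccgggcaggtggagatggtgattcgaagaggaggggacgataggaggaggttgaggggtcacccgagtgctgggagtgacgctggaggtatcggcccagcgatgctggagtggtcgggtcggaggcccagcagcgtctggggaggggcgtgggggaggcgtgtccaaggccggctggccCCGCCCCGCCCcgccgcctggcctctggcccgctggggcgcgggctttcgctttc
TNF has a TATA box match beginning 29 bases before its start, and GC box matches at 174 and 54 bases. TNFRSF1A has a CCAAT box match at 151 bases and no match to the other motifs. TNFRSF1B has overlapping GC box matches at 55 and 50 bases, and the printed stretch holds 72.4% G or C, against 57.2% in TNF and 56.1% in TNFRSF1A. Among the 35116 promoters of the same table, 10.7% hold the TATA box letters in the 250 bases before the start, 32.0% the CCAAT box letters and 42.6% the GC box letters. RefSeq windows were found for 8 of the 10 genes, 17 windows in all. An NF-κB-like motif (GGGA, any 4 bases, then CC, on either strand) was in 3 of the 17 windows (17.6%), at 108 bases before a start of RIPK1, 77 bases before one of CASP8 and 216 bases before one of FAS. It was in 22.6% of all promoters. The AP-1 letters TGANTCA were also in 3 of 17 windows, against 6.57% of promoters, and the GATA letters AGATAA in 3 of 17, against 9.17%. A match describes letters only, and no match says only that these letters are not in the window.

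TNF (ENSG00000232810; GRCh38 chromosome 6, 31575567 to 31578336, plus strand, 4 exons in TNF-208) is the founding ligand of the family. Positions here and below are those of the whole gene, exons and introns, in GENCODE 29. K562 held 0 counts of it with DMSO and 25 with periplocin, and THP-1 held 239 and 506. In CPM these are 0, 1.51, 11.6 and 28.6. TNF was not detected in the K562 DMSO library, where the 95% Poisson interval of a count of 0 reaches 0.225 CPM. It was low in K562 with periplocin, and higher in either THP-1 library than in either K562 library. Against the floor of 3 counts per library, it was 8.18-fold higher with periplocin in K562. The 95% counting interval, which uses the counts without the floor, began at 6.175-fold and had no upper limit. In THP-1 it was 2.48 times higher with periplocin (log2 1.31, 95% counting interval 1.09 to 1.54). A value this high or higher was held by 6.66% of THP-1 genes.

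TNFRSF1A (ENSG00000067182; chromosome 12, 6328757 to 6342114, minus strand, 10 exons in TNFRSF1A-201) is the death domain receptor of TNF. With DMSO and periplocin it had 853 and 97 counts in K562, and 1375 and 1630 in THP-1. The K562 periplocin library stood apart from the other 3, 8.96 times below its DMSO control (log2 -3.16, 95% counting interval -3.48 to -2.86). In K562, 0.644% of all genes had a lower value. In THP-1 the receptor was 1.39 times higher with periplocin (log2 0.48, interval 0.37 to 0.58), short of 2-fold.

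TNFRSF1B (ENSG00000028137; chromosome 1, 12167003 to 12209228, plus strand, 10 exons in TNFRSF1B-201) is the other TNF receptor. There were 607 counts in untreated K562, 721 in treated K562, 904 in untreated THP-1 and 1713 in treated THP-1. It was near its control in K562 (log2 0.22, interval 0.06 to 0.38) and 2.22 times higher in THP-1 (log2 1.15, interval 1.04 to 1.27). The receptors also moved against each other. The ratio of TNFRSF1A to TNFRSF1B counts was 1.41 in K562 DMSO and 0.135 in K562 periplocin, a log2 change of -3.39 (interval -3.73 to -3.04). In THP-1 it was 1.52 in DMSO and 0.952 in periplocin, a log2 change of -0.68 (interval -0.83 to -0.52). A ratio of counts depends on gene length. Its change within a line does not, provided that the mix of transcripts of each gene stays the same, which was not measured.

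TNFRSF10B (ENSG00000120889; chromosome 8, 23020133 to 23069179, minus strand, 9 exons in TNFRSF10B-201) is a TRAIL receptor. The K562 pair, DMSO before periplocin, had 1463 and 373 counts, and the THP-1 pair 873 and 1588. In CPM the line with more of it changed places: 89.3 in K562 and 42.3 in THP-1 with DMSO, and 22.5 in K562 and 89.6 in THP-1 with periplocin. It was 3.995 times lower with periplocin in K562 (log2 -1.998, interval -2.17 to -1.83) and 2.13 times higher in THP-1 (log2 1.09, interval 0.97 to 1.21). TNFRSF10A, the other death domain receptor of TRAIL, had 476 and 261 counts in K562 and 195 and 187 in THP-1, and was short of 2-fold in each line (log2 -0.89 and 0.17). The ratio of TNFRSF10B to TNFRSF10A counts was 3.07 and then 1.43 in K562, and 4.48 and then 8.49 in THP-1. TNFRSF10B shares 67 bases of exon with RHOBTB2 on the opposite strand. RHOBTB2 had 169, 79, 1303 and 1144 counts, in the order of the groups above. Whether the counting used strand is not given in the sources used here, so reads in such shared bases cannot be told apart.

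FAS (ENSG00000026103; chromosome 10, 88990582 to 89015785, plus strand, 9 exons in FAS-204) is the receptor of FAS ligand. K562 held 5 counts of it with DMSO and 2 with periplocin, and THP-1 held 49 and 97. K562 was below the minimum of 10 counts in both libraries, and no fold change is given there. In THP-1 it was 2.32 times higher with periplocin (log2 1.22, interval 0.71 to 1.74), the widest interval among the genes that passed 2-fold in that line. FAS shares 380 bases of exon with ACTA2 on the opposite strand, which had 1, 4, 32 and 47 counts. FASLG, the ligand, had 0 counts in all 4 libraries. TNFSF10 (TRAIL) had 25 counts in each K562 library and 325 and 274 in THP-1, with log2 fold changes of -0.03 and -0.02.

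TRADD (ENSG00000102871; chromosome 16, 67154180 to 67160298, minus strand, 5 exons in TRADD-201) is the adaptor that binds the death domain of TNFRSF1A. With DMSO and periplocin it had 258 and 106 counts in K562, and 112 and 78 in THP-1. It was 2.48 times lower with periplocin in K562 (log2 -1.31, interval -1.65 to -0.98), while in THP-1 the interval held no change (log2 -0.29, interval -0.73 to 0.14). TRADD shares 126 bases of exon with FBXL8 on the opposite strand, which had 152, 152, 94 and 37 counts.

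RIPK1 (ENSG00000137275; chromosome 6, 3063991 to 3115187, plus strand, 11 exons in RIPK1-201) is the kinase at which survival and death signals part. There were 1481 counts in untreated K562, 1298 in treated K562, 479 in untreated THP-1 and 488 in treated THP-1. Its level followed the line rather than the treatment, with both K562 libraries above both THP-1 libraries in CPM (90.4 and 78.4 against 23.2 and 27.5). The log2 fold change was -0.22 in K562 (interval -0.33 to -0.11) and 0.26 in THP-1 (interval 0.07 to 0.44), well short of 2-fold in each. An antisense gene, AL031963.3, shares 238 bases of its exons and was not analysed here.

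FADD (ENSG00000168040; chromosome 11, 70203163 to 70207390, plus strand, 2 exons in FADD-201) links death receptors to CASP8. The K562 pair, DMSO before periplocin, had 485 and 213 counts, and the THP-1 pair 465 and 342. It was 2.32 times lower with periplocin in K562 (log2 -1.21, interval -1.45 to -0.98) and little changed in THP-1 (log2 -0.21, interval -0.42 to -0.01). Its exons share 1011 bases with an antisense gene, AP000879.1, which was not analysed here.

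CASP8 (ENSG00000064012; chromosome 2, 201233443 to 201287711, plus strand, 9 exons in CASP8-205) is the initiator protease of death receptor apoptosis. K562 held 356 counts of it with DMSO and 375 with periplocin, and THP-1 held 1074 and 2192. It stayed near its control in K562 (log2 0.05, interval -0.16 to 0.26) and was 2.40 times higher with periplocin in THP-1 (log2 1.26, interval 1.15 to 1.37). Set against its adaptor, the ratio of FADD to CASP8 counts was lower with periplocin in both lines. It was 1.36 and then 0.568 in K562 (log2 change -1.26, interval -1.58 to -0.95) and 0.433 and then 0.156 in THP-1 (log2 change -1.47, interval -1.70 to -1.25).

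CFLAR (ENSG00000003402; chromosome 2, 201116104 to 201176687, plus strand, 10 exons in CFLAR-201) had the most counts of the 10 genes in each library, on a scale that grows with transcript length. Untreated and treated K562 held 4261 and 1337, and untreated and treated THP-1 held 2848 and 5475. With periplocin it was 3.25 times lower in K562 (log2 -1.70, interval -1.79 to -1.61) and 2.26 times higher in THP-1 (log2 1.17, interval 1.11 to 1.24). The ratio of CFLAR to CASP8 counts went from 11.97 to 3.57 in K562, a log2 change of -1.75 (interval -1.97 to -1.52). In THP-1 it was 2.65 and 2.50, a log2 change of -0.09 whose interval, -0.21 to 0.04, held no change. In counts per gene, the inhibitor was lower relative to its protease in K562, and both were higher in THP-1. Opposite-strand genes share exon bases with CFLAR as well, 1488 with the pseudogene IMPDH1P10 and 777 with CFLAR-AS1, and were not analysed here. AC007283.1, on the same strand as CFLAR, shares 445 bases and was not analysed either. Use of strand would not separate reads in those bases. CFLAR has 25 annotated transcripts, whose long and short products differ in function, and a count per gene does not separate them.

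**Figure D2:**
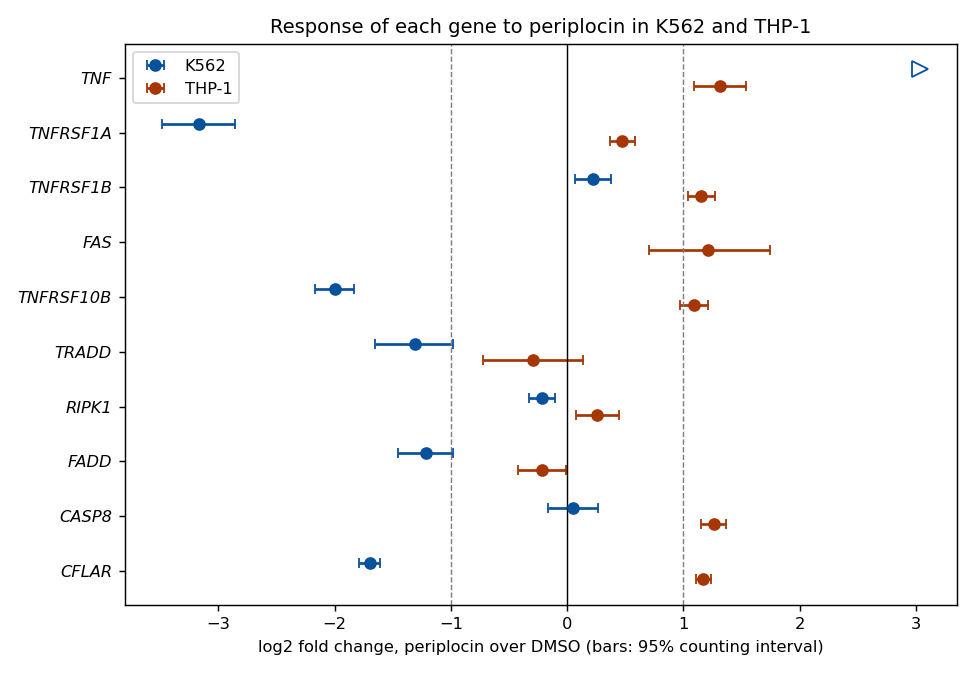
Log2 fold change of periplocin over DMSO in K562 (blue) and THP-1 (brown) with 95% counting intervals, and dashed lines at 2-fold. TNF in K562 is a value against the floor of 3 counts (open triangle at 3.03), and FAS in K562 is not shown for want of counts. TNFRSF1A, TNFRSF10B and CFLAR lie left of the dashed lines in K562 and right of 0 in THP-1.

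**Figure D3:**
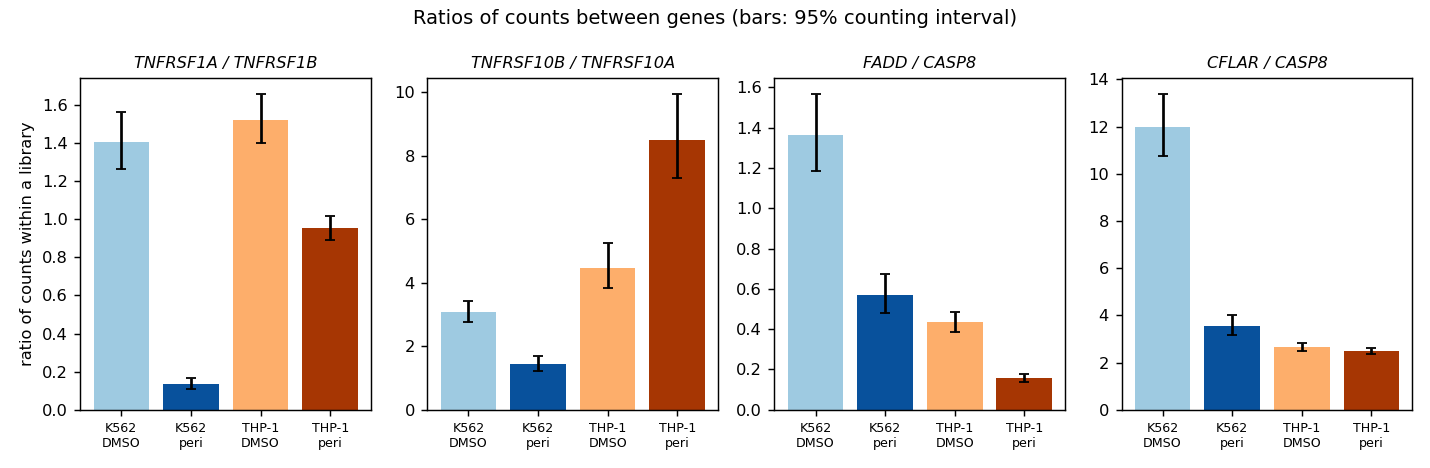
Ratio of counts between pairs of genes within each library, with 95% counting intervals as bars. The CFLAR to CASP8 ratio is 11.97 in K562 DMSO and between 2.50 and 3.57 in the other 3 libraries, and the TNFRSF1A to TNFRSF1B ratio is 0.135 in K562 periplocin and at least 0.952 elsewhere.

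The responses of the lines were set side by side for the 8 genes that held at least 10 counts in every library. The log2 fold change in THP-1 minus that in K562 was 3.64 for TNFRSF1A (interval 3.32 to 3.96), 3.09 for TNFRSF10B (2.89 to 3.29) and 2.87 for CFLAR (2.76 to 2.98). It was 1.21 for CASP8, 1.02 for TRADD, 1.00 for FADD, 0.93 for TNFRSF1B and 0.47 for RIPK1. All 8 counting intervals lay above 0. Of the 10848 genes with as many counts, 33.0% had an interval above 0 and 37.2% one below 0. With counting error alone, most genes of a line differ: the interval of the fold change excluded no change in 8 of 9 members in K562 (75.5% of all genes) and in 9 of 10 in THP-1 (74.6%). With a dispersion of 0.16 assumed between replicates, which these data cannot measure within a line, the numbers were 4 and 0. The shares of all genes at that dispersion were not computed.

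A treatment effect common to both lines was fitted over the 4 libraries with edgeR's quasi-likelihood test, with line and treatment as terms. Such a fit leaves 1 residual degree of freedom, so disagreement between the lines is its only measure of error. At a Benjamini-Hochberg adjusted p under 0.05 it called 0 of 13584 genes, 0.00%, although the unadjusted p was under 0.05 for 1538. The same model in DESeq2 called 126, none of them a member. TNF was the only member with an unadjusted p under 0.05 in edgeR, where its adjusted p was 0.4232, and it had an adjusted p of 0.2503 in DESeq2. Its log2 estimate over both lines was 2.27 in edgeR. CFLAR, past 2-fold in opposite directions in the lines, had a common estimate of -0.25 in edgeR (adjusted p = 0.9119).

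Before treatment the lines differed in 5 of the 10 genes by 2-fold or more. Of these, TNF and FAS met the count minimum through the THP-1 library alone and so could only be called higher there. Against the floor of 3 counts, TNF was 68.8-fold higher in THP-1 DMSO than in K562 DMSO, with an interval that began at 55.5-fold. CASP8 was 2.61 times higher in THP-1 (log2 1.38, interval 1.21 to 1.56). FAS was 8.46 times higher there, on 5 counts in K562 against 49 (log2 3.08, interval 1.76 to 4.77). TRADD was 2.67 times lower in THP-1 (log2 -1.42) and RIPK1 3.58 times lower (log2 -1.84). The other 5 lay between a log2 difference of -0.96 for TNFRSF10B and 0.48 for TNFRSF1A. The share past 2-fold, 5 of 10, was near that of all genes, 47.2% of 13974 (25.1% higher and 22.1% lower in THP-1). With total counts in place of TMM, TNFRSF10B also passed and the number was 6.

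To compare genes with each other, CPM was divided by the length of the longest coding transcript in kb (GENCODE 29). In K562 DMSO the order ran TNFRSF1A (23.4 CPM per kb), RIPK1 (21.7), TNFRSF10B (21.5), CFLAR (17.7), FADD (16.1), TNFRSF1B (10.1), TRADD (8.39), CASP8 (7.42) and FAS (0.119), with TNF at 0. The first 3 could not be told from each neighbour by their counting intervals, nor CFLAR from FADD, TNFRSF1B from TRADD, TRADD from CASP8, or FAS from TNF. In K562 periplocin RIPK1 led with 18.8 CPM per kb, followed by TNFRSF1B with 11.8 and CASP8 with 7.73, and TNFRSF1A was eighth with 2.64. CASP8 did not differ from FADD (6.99) there, CFLAR (5.50) from TNFRSF10B (5.43), or TRADD (3.41) from TNFRSF1A. TNF (0.901) and FAS (0.0471) came last. In THP-1 DMSO TNFRSF1A led with 30.0 CPM per kb, ahead of CASP8 (17.8), FADD (12.3), TNFRSF1B (11.9), TNFRSF10B (10.2), CFLAR (9.41), TNF (6.92), RIPK1 (5.58), TRADD (2.89) and FAS (0.927). FADD overlapped TNFRSF1B, TNFRSF10B overlapped CFLAR, and TNF overlapped RIPK1. In THP-1 periplocin CASP8 (42.2) and TNFRSF1A (41.4) led without a difference between them, before TNFRSF1B (26.3), TNFRSF10B (21.6), CFLAR (21.1), TNF (17.0), FADD (10.5), RIPK1 (6.62), TRADD (2.35) and FAS (2.14). There TNFRSF10B overlapped CFLAR, and TRADD overlapped FAS. The place of CFLAR depended on the length used. Its longest coding transcript is 14672 bases and the median of its coding transcripts 1214 bases, and by the median length it ranked first in all 4 libraries, with 214, 66.5, 114 and 255 CPM per kb.

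The wider pathway was read from lists of genes by role. Every one of the 10 members is also in a list, so the list values are not separate from those above. The K562 median of the death domain receptors is the value of TNFRSF10B itself. The median log2 fold changes of the lists, K562 before THP-1, were 0.98 and 0.91 for ligands, -1.998 and 0.32 for death domain receptors and -0.98 and 0.69 for TRAF-binding receptors. They were -0.06 and -0.08 for receptor complex genes, -0.23 and 0.28 for caspase activation and 0.04 and 0.51 for TNF processing, beside -0.01 and -0.03 over all genes. Of all genes, 10.5% were higher and 13.0% lower past 2-fold in K562, and 9.67% and 12.4% in THP-1. Of 8 ligands of the TNF superfamily with enough counts in K562, 4 were higher past 2-fold and 0 lower (TNF, LTA, TNFSF13B and TNFSF13, none above 3 CPM). TNF, LTA and TNFSF13 met the count minimum through the periplocin library alone and could differ in 1 direction only, and the counting interval of TNFSF13 held no change. In THP-1, 6 of 13 were higher and 0 lower, among them TNFSF9 (4-1BB ligand) with 172 counts in DMSO and 322 in periplocin (log2 1.14). LTA, TNFSF15 and TNFSF18 met the minimum there through the periplocin library alone, and the interval of LTA held no change. Of the other receptors with a death domain, TNFRSF21 was lower in both lines, from 266 to 47 counts in THP-1 (log2 -2.27) and from 40 to 3 in K562. Death domain receptors as a list had 1 higher and 3 lower of 5 in K562, and 2 higher and 2 lower of 6 in THP-1. In K562, TNFRSF25 met the count minimum through the periplocin library alone and could only be called higher. TNFRSF21 met it there through the DMSO library alone and could only be called lower. Decoy receptors, which bind ligand without a full signal, had 0 of 1 past 2-fold in K562 and 1 of 3 in THP-1, TNFRSF10D, with 235 and 412 counts (log2 1.04). Receptors that bind TRAF proteins had 2 higher and 4 lower of 8 in K562. Among them TNFRSF8 (CD30) had 438 counts in DMSO and 46 in periplocin (log2 -3.28), TNFRSF12A (the TWEAK receptor) 200 and 69 (log2 -1.56) and TNFRSF14 (HVEM) 98 and 292 (log2 1.55). In THP-1 that list had 2 higher and 0 lower of 8, TNFRSF1B and TNFRSF9. TNFRSF9 met the count minimum through the periplocin library alone in both lines, and so could only be called higher. CD40, among the lower ones in K562, met it there through the DMSO library alone.

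The signalling machinery downstream of the receptors is to be read against the shares of all genes past 2-fold, 23.5% in K562 and 22.0% in THP-1. Of the adaptors and ubiquitin enzymes of the receptor complex, 1 was higher and 3 lower of 22 in K562, and 2 were higher and 1 lower of 23 in THP-1. In K562 the lower ones were TRADD, RBCK1 (HOIL-1, a subunit of the linear ubiquitin ligase; 2440 and 541 counts, log2 -2.20) and TRAF5 (485 and 180 counts, log2 -1.46). BIRC3 (cIAP2, a ubiquitin ligase and a target of NF-κB) was higher in both lines, with 52 and 142 counts in K562 (log2 1.42) and 59 and 133 in THP-1 (log2 1.40). TRAF1 was higher in THP-1, with 48 and 97 counts (log2 1.25), and TRAF5 lower, with 25 and 7. TRAF5 met the count minimum there through the DMSO library alone and could only be called lower. In the caspase list, CFLAR and FADD were the 2 of 13 past 2-fold in K562, both lower, and CASP8 and CFLAR the 2 of 13 in THP-1, both higher. All of these are members already described. Of the necroptosis genes, 0 of 2 were past 2-fold in K562 and 1 of 3 in THP-1. That was MLKL, the membrane-permeabilising effector, with 347 counts in DMSO and 942 in periplocin (log2 1.67). RIPK3, the kinase that activates it, had 301 and 294 counts in THP-1 and 1 and 0 in K562.

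**Figure D4:**
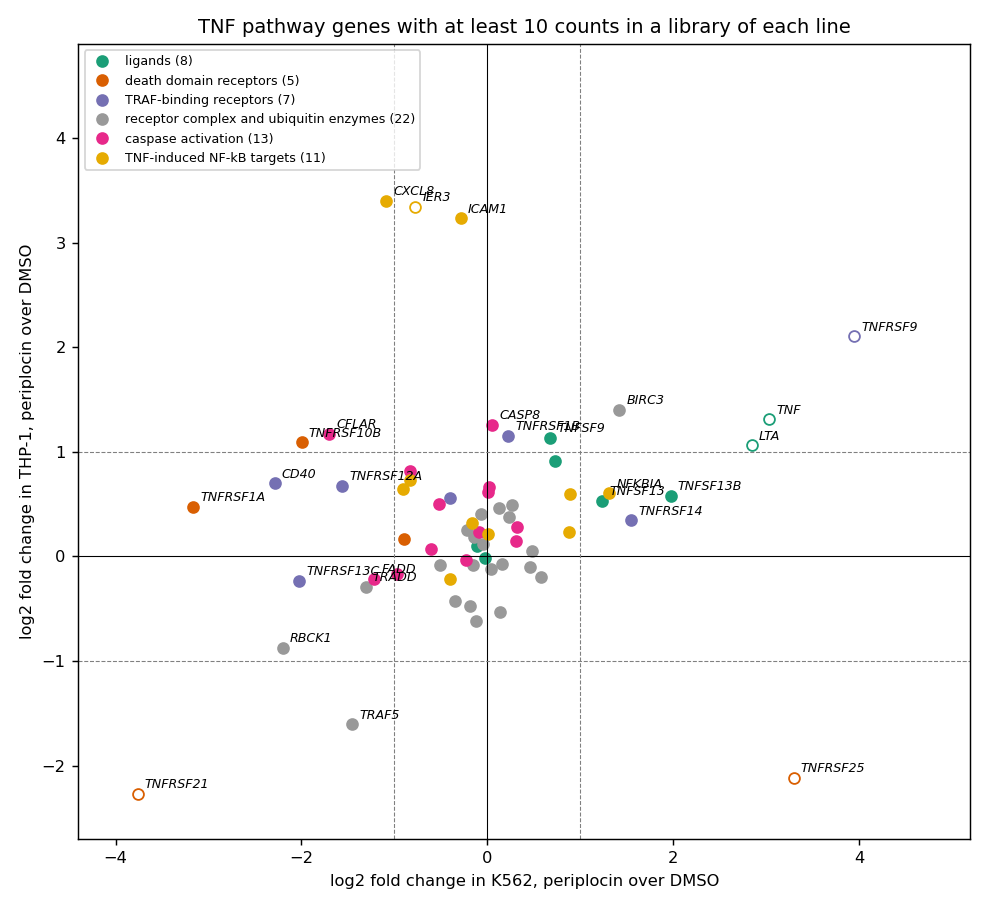
Log2 fold change of periplocin over DMSO in K562 (horizontal) and THP-1 (vertical) for genes of 6 lists by role, each gene once, with dashed lines at 2-fold. Open points hold a count at or under the floor of 3 in a library, and CFLAR and TNFRSF10B sit in the upper left, past 2-fold lower in K562 and higher in THP-1.

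Among genes that make, shed or destabilise TNF, 1 of 8 was past 2-fold in K562 and 2 of 9 in THP-1. The shares of all genes were 23.5% in K562 and 22.0% in THP-1, so this list did not stand out. LITAF, named for LPS-induced TNF factor, was lower in K562 with 1157 counts in DMSO and 300 in periplocin (log2 -1.97) and short of 2-fold in THP-1 with 1371 and 1664 (log2 0.51). ZFP36L1, which destabilises AU-rich messages, had 37 and 416 counts in THP-1 (log2 3.72). RHBDF1 (iRhom1, a partner of the TNF-shedding protease) had 68 and 150 counts in THP-1 (log2 1.37). The shedding protease itself, ADAM17, had log2 fold changes of -0.29 in K562 and 0.80 in THP-1.

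A list of genes that TNF is known to induce through NF-κB was read as well. Whether TNF acted on them in these cells was not tested. Of 17 in the list with enough counts in THP-1, 8 were higher past 2-fold and 0 lower, with a median log2 fold change of 0.73. Of 16 in K562, 2 were higher and 4 lower, with a median of -0.35. Of all genes, 9.67% were higher and 12.4% lower in THP-1, and 10.5% and 13.0% in K562. In THP-1 the chemokines CCL2 (8 counts in DMSO and 349 in periplocin, log2 5.68) and CXCL8 (13 and 117, log2 3.40) and the adhesion molecule ICAM1 (63 and 506, log2 3.24) were higher, as were BIRC3 and TRAF1. The other 3, named after their values were seen, were IL1B with 10 and 74 counts, CCL3 with 1 and 72 and IER3 with 3 and 26. CCL2, CCL3 and IER3 met the count minimum through the periplocin library alone and so could differ in 1 direction only. In K562 the lower ones were IL6 (195 and 50 counts, log2 -1.99), CXCL2, CXCL3 and CXCL8, and the higher ones were NFKBIA, the inhibitor of NF-κB (178 and 451 counts, log2 1.32), and BIRC3. CXCL2, with 34 and 9 counts in K562, met the count minimum through the DMSO library alone and could only be called lower. The interval of CXCL8 in K562, with 23 and 11 counts, held no change. NFKB1 was near its control in both lines (log2 0.01 and 0.22). TNFAIP3 (A20), a feedback inhibitor of TNF signalling, was short of 2-fold in both (log2 0.46 and -0.10).

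**Figure D5:**
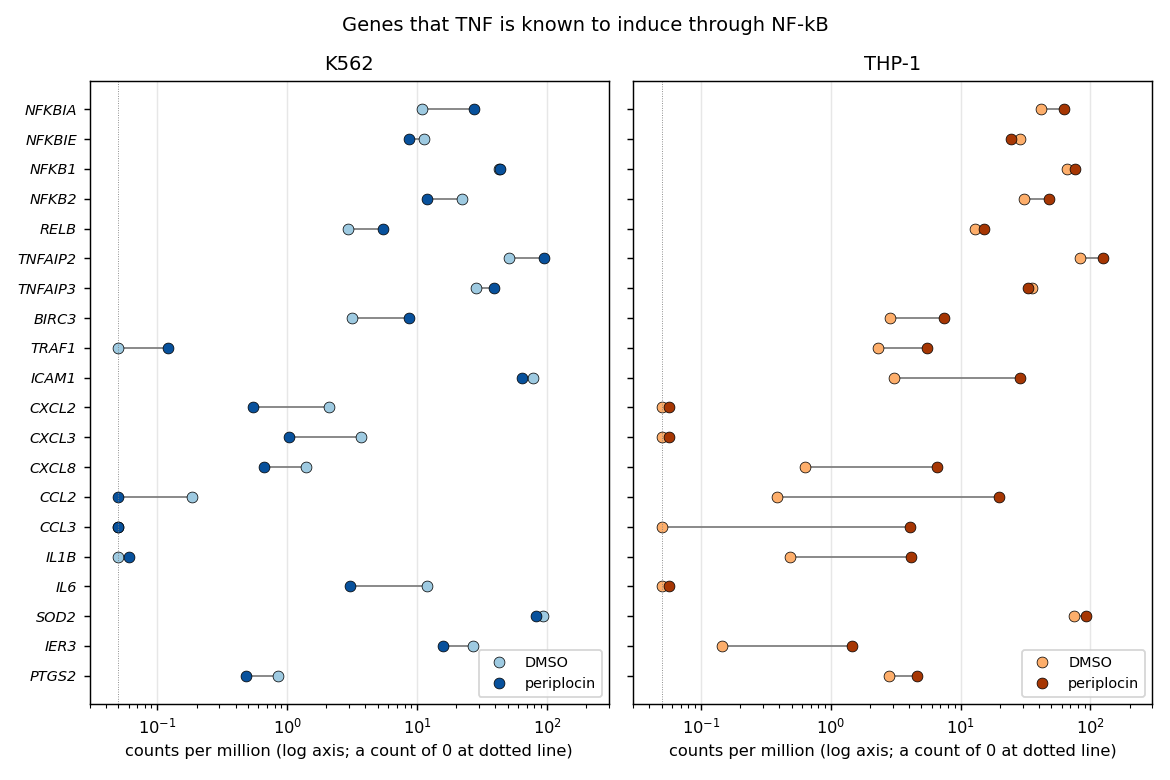
CPM (log axis) of genes that TNF is known to induce through NF-κB, in DMSO (light) and periplocin (dark), for genes with at least 10 counts in some library. In THP-1 the CCL2 points lie at 0.388 and 19.7 CPM, and IL6 in K562 moves from 11.9 to 3.02 CPM.

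Library totals were between 16381172 and 20622719 counts, and 3 counts correspond to 0.146 to 0.183 CPM. The line labels matched their markers. All 15 erythroid markers were higher past 2-fold in K562 DMSO than in THP-1 DMSO (22.1% of all genes). Of the 12 monocyte markers with enough counts, 11 were higher in THP-1 DMSO (25.1% of all genes). Markers also moved with treatment. Of all genes, 10.5% were higher and 13.0% lower past 2-fold in K562, and 9.67% and 12.4% in THP-1. In K562, 14 of 15 erythroid markers were higher with periplocin. The sum of the list went from 2730 to 14400 CPM, with 0 of 15 at 0 in either library. In THP-1, 6 of 14 monocyte markers were higher and 1 lower. The sum over the list of 15 went from 1734 to 2586 CPM, with 0 at 0. Monocyte markers in K562 had 2 higher and 4 lower of 11, and summed to 175 and 145 CPM with 2 and 3 of 15 at 0. Erythroid markers in THP-1 had 1 higher and 4 lower of 7, and summed to 12.6 and 9.82 CPM with 2 and 3 at 0. The summed T cell, B cell and stromal markers were at or under 10.6 CPM in every library. Counts on mitochondrial genes were 5.62% and 2.07% of the K562 libraries and 5.24% and 3.93% of the THP-1 libraries, DMSO first. The part of these shifts in the changes of the receptor genes was not tested, and in bulk RNA fewer cells of a state and less RNA per cell cannot be told apart.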

How the data were processed

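Poly-A RNA of K562 and THP-1 cells, 1 library per line and treatment, was analysed. K562 came from a cell bank and THP-1 from another laboratory, per the study's methods. The authors deposited for each gene an expected count in each library, without normalization or pooling, and 87.4% to 88.3% of the values are whole. The submitters' processing notes name HISAT2, StringTie 1.3.1 and hg38. The step that made the counts, and any use of strand, are not given in the sources used here. The labels name an Illumina instrument and the study's methods another one.

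Expected counts were rounded to whole numbers. Gene names were looked up by identifier in a reference list (20310 of 20348 genes). Lengths, exons and overlaps came from GENCODE 29 (20118 genes found by identifier). The table held 0 unused columns. Within a line, and between the DMSO libraries, TMM factors over the 2 libraries (edgeR 4.0.16, R 4.3.3) scaled the counts. A count of 3 or fewer was set to the floor of 3 per library, genes with at least 10 counts in 1 of the 2 libraries were compared, and past 2-fold means a log2 fold change at or beyond 1 in either direction. Intervals are exact conditional binomial (Clopper-Pearson) at 95% for 1 fold change, normal on the log scale for a difference of fold changes or a ratio, and exact Poisson for a level. Reads without molecular identifiers, and counts divided among genes by estimation, are not independent molecules, so intervals give the least error. With 1 library per group no p was computed within a line. The fit over 4 libraries took the genes that reached 10 counts in 2 or more libraries, had a common biological coefficient of variation of 0.317, and gave no adjusted p for 1844 genes in DESeq2 1.42.0. Scripts were tested on simulated data. Python 3.11.15 was used elsewhere. Promoters came from RefSeq windows on GRCh38.p14.

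The 10 genes, the lists and the tests were chosen with earlier results of these data known, and the lists were written from general knowledge. Named genes are the 10 members and, of each list, up to 5 genes past 2-fold with the largest absolute change in a line among those with at least 5 CPM in 1 library. Ligands, receptors and TNF targets below that level, and TNFRSF10A, FASLG, TNFSF10, RIPK3, ADAM17, NFKB1 and TNFAIP3, were named after their values were seen. Alternatives changed the scaling, the count minimum, the fold, an assumed dispersion and the length definition.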

Additional observations from a re-analysis of the deposited data

Results flagged for a closer look

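For 6 genes the fold change with periplocin had opposite signs in the lines, with each counting interval on its own side of 0. TNFRSF1A had a log2 fold change of -3.16 in K562 and 0.48 in THP-1, CFLAR -1.70 and 1.17, TNFRSF10B -1.998 and 1.09, and RIPK1 -0.22 and 0.26. Of the wider lists, LITAF had -1.97 in K562 and 0.51 in THP-1, and ICAM1 -0.29 and 3.24. With 1 library per group this difference was not tested against replicate spread, and the opposite signs are given as values only.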

How the results depend on the processing

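With 3-fold in place of 2-fold, 0 members passed in THP-1 and 3 between the untreated lines. At an assumed dispersion of 0.16 between replicates, the number of members whose interval excluded no change went from 8 to 4 in K562 (1 higher and 3 lower) and from 9 to 0 in THP-1. At 0.04 it was 6 in each line. Counting intervals lay wholly past 2-fold for 4 members in each line, leaving out TRADD and FADD in K562 and FAS and TNFRSF10B in THP-1. Shares of all genes at 3-fold, at either dispersion and for intervals wholly past 2-fold were not computed. These counts of members therefore cannot be set against a general rate. Length definitions moved levels between genes. The CFLAR to CASP8 ratio per length, in the order K562 DMSO, K562 periplocin, THP-1 DMSO and THP-1 periplocin, was 2.39, 0.712, 0.530 and 0.499 with the longest coding transcript. It was 3.85, 1.15, 0.853 and 0.803 with all exons, and 12.6, 3.74, 2.79 and 2.62 with the median coding transcript, a length chosen after seeing the data. The TNFRSF1A to TNFRSF1B ratio went from 2.33, 0.223, 2.52 and 1.58 to 1.32, 0.127, 1.43 and 0.895 with all exons. These shifts follow from the lengths themselves. Total counts, DESeq2 size factors, TMM over 4 libraries, no count minimum, a minimum of 5 CPM and 1.5-fold kept each of the 3 counts of members past 2-fold within 1.5 times, and 0 fold changes of a member past 2-fold reversed. Under another scaling, 86 fold changes of single members stayed within their counting interval and 1 did not. That was CFLAR between the untreated lines, with a log2 difference of -0.91 with total counts. The edgeR fit without a count minimum called 2 of 17197 genes, and every fit over both lines called 0 members. No library could be left out, since each group holds 1. The groups share no replicate numbers, and the fit over 4 libraries already compares treatments within a line.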

Other observations

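A few genes of the family with low counts were past 2-fold and were picked out after their values were seen. TNFRSF9 (4-1BB) had 4 counts in K562 DMSO and 63 in K562 periplocin, and 3 and 11 in THP-1. TNFRSF25 (DR3) had 2 and 30 counts in K562, but 61 and 12 in THP-1 (log2 -2.12, 95% counting interval -3.14 to -1.21). LTA, the ligand gene next to TNF, had 0 and 22 counts in K562. Against the floor of 3 counts that was 7.20-fold higher (log2 2.85), with an interval that began at log2 2.43. In THP-1 LTA had 9 and 16 counts, and the interval held no change. TNFRSF9 and LTA in both lines, and TNFRSF25 in K562, met the count minimum through the periplocin library alone and could only be called higher. These values have no replicate check.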
